A study of Arabidopsis thaliana with 18 samples.

Results

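Polysomal RNA from dry seeds of the Arabidopsis thaliana mutant abci20 was compared with polysomal RNA from dry seeds of Col-0. The 6 arrays of the comparison were chosen by their labels, 3 polysome replicates of each genotype, out of 18 arrays in the series. The other 12 arrays measured total and monosomal RNA of both genotypes, and they shared the model's estimate of the spread and gave the same genotype difference in the other fractions. Both genotypes are labelled with the Col-0 ecotype, so Col-0 was both the background and the control, and the labels give no allele for the mutant. The seeds were freshly harvested and dry, and 1 replicate was a bulk of 8 plants from a randomized block layout. Values are deposited log2 signals of 27827 probe sets, 1 for each locus, so a difference of 1 is a doubling of signal and levels of single probe sets are not ranked against each other.

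Polysomes are messages that carry several ribosomes at once, and RNA pulled down with them is taken as the pool in translation. Dry seeds keep a store of messages made during maturation on the mother plant, and translation resumes when the seed takes up water. ABCI20 encodes a small nucleotide-binding protein of the ABC transporter superfamily, in a group with ABCI19 and ABCI21, and the series is titled for a role of ABCI20 in seed maturation.

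The label of the tissue was checked against marker genes. The 9 seed storage protein genes used had Col-0 log2 signals at a median of 11.4, and 7 oil body and 15 late embryogenesis abundant genes had medians of 11.3 each. These are signals of different probe sets, given as a description that does not order the genes. Summed linear signal of 17 leaf, root and flower markers ranged from 234.9 to 265.6 in Col-0 and from 292.6 to 340.8 in abci20, and their part in the results below was not tested. None of the 17 passed the test. Their median Col-0 level was 1.94, and 4 of them ranked in the upper part of all probe sets, above the middle rank. The floral markers SUP, AP3 and AP1 had Col-0 mean levels of 1.41, 1.45 and 1.53. Differences were positive for 13 of the 17, against 48.7% of all probe sets. The abci20 arrays lay wholly above for 4, against 10.3% of all probe sets. The 6 polysomal arrays correlated at 0.985 to 0.986 within Col-0, 0.980 to 0.987 within abci20 and 0.970 to 0.983 between genotypes, across probe sets that are not independent. In the other fractions, total RNA replicate 1 of abci20 stood apart, at r = 0.893 and 0.915 with its partners against 0.959 between those.

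In polysomal RNA 123 genes passed the threshold, 65 of them higher and 58 lower in abci20 than in Col-0. These are 0.442% of the probe sets tested, 0.234% for the higher and 0.208% for the lower calls (limma, two-sided, Benjamini-Hochberg adjusted p under 0.05 over all 27827). The differences of the called genes ran from 0.794 to 2.97 in size, and 60 higher and 54 lower calls were at least 2-fold. For all 123 the 3 arrays of one genotype lay wholly above those of the other. Over all probe sets, the abci20 arrays lay wholly above in 10.3% and wholly below in 11%, and 48.7% of the differences were positive. These shares are the base for the counts within gene lists below. At an unadjusted p under 0.05 the count was 2211, or 7.95%. Because the seeds were extracted in bulk, fewer cells of a type and less RNA per cell cannot be told apart for any gene below.

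Each count rests on every array. Leaving out abci20 replicate 1, 2 or 3 left 32, 27 and 70 genes past the threshold, and leaving out Col-0 replicate 1, 2 or 3 left 32, 50 and 42. With each array centred on its own median the count was 67, split into 27 higher and 40 lower, so that 40.3% were higher against 52.8% as deposited. Under every alternative run, 25 genes passed, 13 higher and 12 lower. The higher ones were HSP21, NRT2.6, AT5G11420, G-TMT, COL5, AT1G71250, DWF1, TT7, MSS1, AT1G80440, PPC2, PMT5 and AT5G10120. The lower ones were ARL, NAC019, AT5G59540, AT2G22880, ABCI20, EBF2, AT5G66430, AT5G49690, PTR5, AT5G22460, ABI1 and E12A11.

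**Figure D1:**
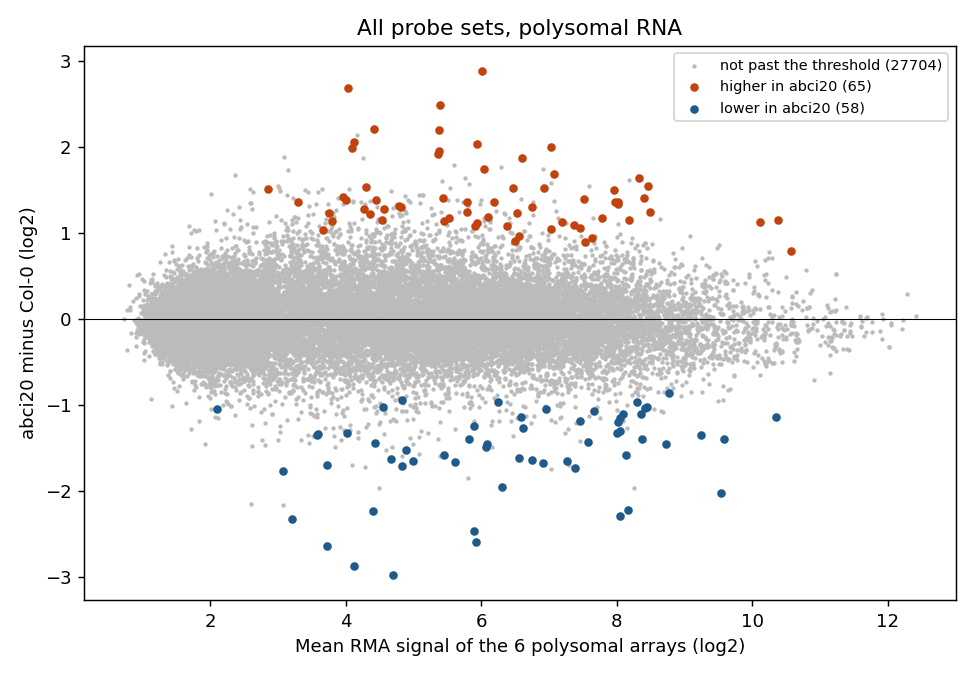
Difference between abci20 and Col-0 (log2) against the mean log2 signal of the 6 polysomal arrays, 1 point per probe set. Orange points mark the 65 genes higher and blue points the 58 genes lower in abci20; the differences of the called genes run to 2.89 above and -2.97 below 0.

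The targeted gene was low in the mutant. ABCI20 (AT5G02270) had log2 signals of 4.23, 4.49 and 4.39 in Col-0 and 2.37, 1.61 and 2.16 in abci20. All 3 mutant arrays lay below all 3 Col-0 arrays, and abci20 replicate 2 was the lowest. The gene fell by 2.32 on the log2 scale (SE 0.341), or 5.0-fold, with an adjusted p of 0.00406. The sources used here do not place its probes relative to the lesion, so the signal that remains cannot be assigned to a transcript. Its relatives did not pass: ABCI21 differed by -0.66 (adjusted p 0.354) and ABCI19 by -0.49 (adjusted p 0.812), with the mutant arrays below those of Col-0 for both. Among the 10 annotated loci measured on each side of ABCI20, 20 in all, 0 passed, and their differences ran from -0.806 to 0.801, the smallest adjusted p being 0.369. By chromosome, the share of probe sets past the threshold was 0.535% on 1, 0.323% on 2, 0.368% on 3, 0.387% on 4 and 0.561% on 5.

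**Figure D2:**
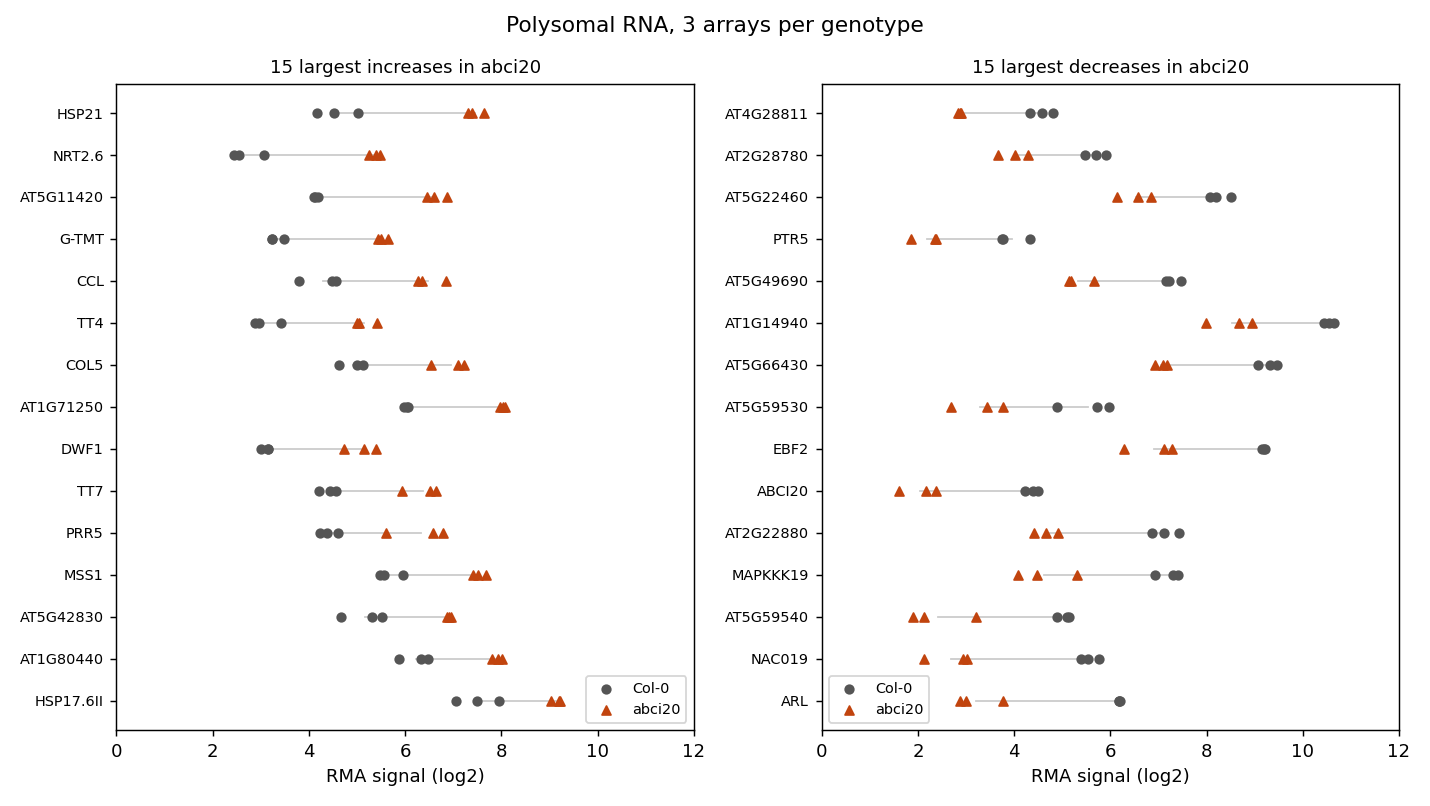
Log2 signals on each polysomal array for the 15 genes with the largest increase (left) and the 15 with the largest decrease (right) in abci20. Circles are the 3 Col-0 arrays and triangles the 3 abci20 arrays, and the line joins the group means. The rows were chosen from calls whose genotypes did not overlap, which held for all 123 calls.

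EBF2 and EIN2, which act in ethylene signalling, were lower in the mutant. Ethylene is a gaseous hormone whose receptors hold the pathway off through the kinase CTR1; EIN2 passes the signal on to the factor EIN3, and the F-box proteins EBF1 and EBF2 mark EIN3 for breakdown. EBF2 (AT5G25350) had signals of 9.2, 9.16 and 9.21 in Col-0 and 7.12, 6.29 and 7.29 in abci20. The Col-0 arrays were nearly equal and all 3 mutant arrays were lower, replicate 2 by most. EBF2 fell by 2.29 (SE 0.278, 4.89-fold, adjusted p 8.21e-04). EIN2 (AT5G03280) had signals of 7.24, 7.1 and 7.42 in Col-0 and 5.92, 5.91 and 6.15 in abci20, again with no overlap between genotypes, and fell by 1.26 (SE 0.211, adjusted p 0.0106).

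The receptor ERS2 had the second largest difference of the pathway but missed the threshold. Its signals were 3.49, 4.05 and 3.47 in Col-0 and 1.72, 1.63 and 1.22 in abci20, a difference of -2.15 (SE 0.480, adjusted p 0.0611), and the abci20 arrays lay wholly below. ETR2, another receptor, differed by -1.13 (adjusted p 0.308) and CTR1 by -0.86 (adjusted p 0.263). Of 20 ethylene genes used, 2 fell and 0 rose, 17 had a negative difference, and the mutant arrays lay wholly below in 8. Over all probe sets 48.7% of the differences were positive, and the mutant arrays lay wholly below in 11%. The median difference of the list was -0.2, against -0.00884 over all probe sets. EIN2 missed the threshold when any of abci20 replicates 1 and 2 and Col-0 replicates 1 and 3 was left out, at an adjusted p of up to 0.0816 without abci20 replicate 2.

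Abscisic acid is the hormone that builds up during maturation and holds dry seeds dormant. Its receptors act by blocking the clade A phosphatases, which otherwise switch the pathway's kinases off. The phosphatase ABI1 (AT4G26080) had signals of 6.53, 6.46 and 6.35 in Col-0 and 4.87, 4.81 and 4.69 in abci20. Each genotype spanned a narrow range and the ranges did not meet. ABI1 fell by 1.65 (SE 0.234, 3.15-fold, adjusted p 0.00278). Of 9 phosphatases used it alone passed. All 9 differences were negative, with a list median of -0.4, where 48.7% of those over all probe sets were positive. The mutant arrays lay wholly below in 6, against 11% of all probe sets. PP2CA, HAB1 and HAI2 differed by -0.5, -0.51 and -0.59 (adjusted p 0.467, 0.526 and 0.591). In total RNA 4 of the 9 were called lower, where 2.24% of all probe sets were, and in monosomal RNA 2, where 0.744% were.

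Among genes for the synthesis and breakdown of abscisic acid, 1 passed. NCED9 (AT1G78390), a dioxygenase that makes the hormone's precursor in seeds, had signals of 5.41, 5.41 and 5.27 in Col-0 and 6.46, 6.44 and 6.44 in abci20 and rose by 1.09 (SE 0.224, adjusted p 0.0420). The spread within each genotype was small, but the call was lost whichever array was left out, up to an adjusted p of 0.201 without abci20 replicate 2. NCED2 and ABA1, which act in the same route, differed by -1.01 and -0.6 (adjusted p 0.133 and 0.228). Of 15 genes used, 1 rose and 0 fell, and 12 differences were negative around a median of -0.36. None of 21 receptors, kinases and transcription factors of the pathway passed; the factor ABI4 differed by 1.12 (adjusted p 0.183).

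NAC019 (AT1G52890), a stress-responsive NAC transcription factor, had signals of 5.39, 5.76 and 5.53 in Col-0 and 3.02, 2.12 and 2.93 in abci20. It fell by 2.87 (SE 0.285, 7.3-fold, adjusted p 2.57e-04), and no mutant array came near the lowest Col-0 array. All 10 NAC genes used had negative differences (9 of 10 after quantile normalization), with a median of -0.33, but NAC019 was the 1 called. ATAF1 and NAC032 differed by -0.42 and -0.36 (adjusted p 0.562 and 0.881). RD26, a NAC factor placed in the water deficit list, had signals of 8.37, 8.37 and 8.37 in Col-0 and 7.36, 7.21 and 7.66 in abci20, with a difference of -0.96 (adjusted p 0.0610). The 3 Col-0 arrays gave the same RD26 signal to 2 decimals and all mutant arrays were lower.

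Enzymes that make other hormones were among the lower calls, outside the gene lists and named after their values were seen. CCD7, which cleaves carotenoids for strigolactone synthesis, fell by 1.67 (SE 0.288, adjusted p 0.0123), from signals of 7.87, 7.73 and 7.65 in Col-0 to 6.14, 5.8 and 6.3 in abci20. EDS16, the isochorismate synthase of salicylic acid synthesis, fell by 1.63 (SE 0.257, adjusted p 0.00649), from 5.52, 5.62 and 5.32 to 3.63, 3.73 and 4.23. No array of either gene overlapped between genotypes. The cytokinin response factor CRF1 fell by 1.61 (adjusted p 0.00743), whereas CRF11 rose by 1.24 (adjusted p 0.0248), and the purine permease PUP10 fell by 1.39 (adjusted p 0.0442). Without abci20 replicate 2 the adjusted p of CCD7 was 0.115, that of EDS16 0.0621 and that of CRF1 0.0642; CRF11 reached 0.182 without Col-0 replicate 1 and PUP10 0.214 without Col-0 replicate 3. None of 24 cytokinin genes on the list passed.

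In jasmonate synthesis, allene oxide synthase, AOS, had signals of 5.34, 5.57 and 5.62 in Col-0 and 6.83, 6.77 and 7.02 in abci20 and rose by 1.36 (SE 0.254, adjusted p 0.0241). The genotypes did not overlap. It was the 1 call among 24 jasmonate genes, whose median difference was 0.17. JAZ4, a repressor of jasmonate signalling that was not used in that list, fell by 0.96 (adjusted p 0.0399), and the pathway's factor MYC2 differed by 1.12 (adjusted p 0.313). Both calls were lost whichever array was left out, the highest adjusted p being 0.163 for AOS and 0.204 for JAZ4, both without Col-0 replicate 1.

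Small heat shock proteins bind unfolding proteins and accumulate as seeds mature and dry. HSP21 (AT4G27670), the chloroplast member, had signals of 4.16, 5.02 and 4.52 in Col-0 and 7.4, 7.31 and 7.65 in abci20. It rose by 2.89 (SE 0.312, 7.39-fold, adjusted p 2.57e-04), the largest increase among the called genes, and the lowest mutant array was more than 2 units above the highest Col-0 array. The cytosolic HSP17.6II (AT5G12020) had signals of 7.06, 7.96 and 7.5 in Col-0 and 9.19, 9.22 and 9.03 in abci20 and rose by 1.64 (SE 0.276, adjusted p 0.0107). ATHSP22.0 (AT4G10250), of the endoplasmic reticulum, rose by 1.53 (SE 0.260, adjusted p 0.0110), from 5.73, 5.93 and 5.47 to 7.14, 7.72 and 6.84.

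Of 18 small heat shock genes listed, 6 matched the reference by name and were used; of these 3 rose and 0 fell, with a median of 1.26. HSP18.2 differed by 1.0 (adjusted p 0.295). Only HSP21 of the 3 passed whichever array was left out; HSP17.6II reached an adjusted p of 0.0988 without Col-0 replicate 1 and ATHSP22.0 one of 0.107 without abci20 replicate 2. Among 24 large heat shock proteins and heat shock factors 2 rose and 0 fell. They were MBF1C, a coactivator in the heat response, with a rise of 1.37 (SE 0.249, adjusted p 0.0193), and the class B factor HSFB2A, with a rise of 1.14 (SE 0.213, adjusted p 0.0247). MBF1C reached an adjusted p of 0.159 and HSFB2A one of 0.163 without Col-0 replicate 1. The cochaperone AT5G48570 (ROF2) differed by 1.24 (adjusted p 0.0675), and HSP90.1 by 0.57 (adjusted p 0.299). None of 16 endoplasmic reticulum chaperones passed, although 15 of the differences were positive around a median of 0.49, with SHD at 1.38 (adjusted p 0.123) and BIP1 at 0.91 (adjusted p 0.325).

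Nitrate taken into a plant cell is reduced to nitrite and then to ammonium, and nitrite reductase needs siroheme and reduced ferredoxin. NRT2.6 (AT3G45060), of the high-affinity nitrate transporter family, had signals of 2.44, 3.07 and 2.55 in Col-0 and 5.49, 5.24 and 5.39 in abci20. It rose by 2.69 (SE 0.329, 6.43-fold, adjusted p 8.21e-04), and the genotypes were separated by more than 2 units. Nitrite reductase, NIR1 (AT2G15620), had signals of 7.69, 8.04 and 7.88 in Col-0 and 9.22, 9.24 and 8.88 in abci20 and rose by 1.24 (SE 0.203, adjusted p 0.00859). WR3, known as NRT3.1, is a partner protein of high-affinity nitrate transporters; it rose by 1.04 (SE 0.206, adjusted p 0.0351), from 3.16, 3.16 and 3.12 to 4.06, 4.23 and 4.27.

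These were the 3 calls, all higher, among 19 nitrate genes used, whose median difference was 0.08. NIA1, a nitrate reductase, missed the threshold with signals of 6.28, 6.8 and 6.36 in Col-0 and 7.84, 7.93 and 7.46 in abci20 and a difference of 1.26 (adjusted p 0.0610). The transporters NRT2.5 and NRT1.5 differed in opposite directions, by -1.02 and 0.87 (adjusted p 0.0579 and 0.0681). The factor AT2G43500 (NLP8), which acts in nitrate-promoted germination, differed by -0.75 (adjusted p 0.174). NIR1 reached an adjusted p of 0.0803 without Col-0 replicate 1 and WR3 one of 0.183 without abci20 replicate 2, while NRT2.6 passed whichever array was left out.

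The calls outside the lists included UPM1, RFNR2 and FD3, all higher in abci20 and named after their values were seen. UPM1, a methyltransferase of siroheme synthesis, rose by 1.16 (SE 0.207, adjusted p 0.0169), from 7.48, 7.71 and 7.62 to 8.83, 8.75 and 8.71. RFNR2, a root-type ferredoxin reductase, rose by 1.15 (SE 0.244, adjusted p 0.0491), from 4.84, 4.97 and 4.81 to 5.92, 5.99 and 6.15. FD3, a root-type ferredoxin, rose by 0.79 (SE 0.164, adjusted p 0.0426), the smallest difference among all the calls. The 3 genes did not overlap between genotypes, and each call was lost whichever array was left out, up to adjusted p values of 0.138, 0.223 and 0.262 without Col-0 replicate 1.

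Enzymes of central carbon metabolism were named on the same basis. PPC2, a phosphoenolpyruvate carboxylase, had signals of 7.46, 7.82 and 7.79 in Col-0 and 9.43, 9.22 and 9.08 in abci20 and rose by 1.56 (SE 0.189, 2.94-fold, adjusted p 8.21e-04). PPCK1, a kinase that phosphorylates this enzyme family, had signals of 6.04, 6.51 and 5.94 in Col-0 and 7.81, 7.74 and 7.53 in abci20 and rose by 1.53 (SE 0.256, adjusted p 0.0106). Neither gene overlapped between genotypes. Cytosolic malate dehydrogenase c-NAD-MDH2 rose by 1.32 (adjusted p 0.0252), the plastid glucose phosphate isomerase PGI1 by 1.31 (adjusted p 0.0426) and the chloroplast dehydrogenase GAPB by 1.24 (adjusted p 0.0193). GAPB was the 1 call among 36 nuclear photosynthesis genes, whose median difference was 0.12. SPP2, a sucrose phosphate phosphatase, fell by 1.57 (SE 0.281, adjusted p 0.0167), from 6.09, 6.57 and 6.07 to 4.46, 4.65 and 4.89. PPC2 alone of the genes in this paragraph passed whichever array was left out; the highest adjusted p was 0.0803 for PPCK1, 0.117 for c-NAD-MDH2, 0.211 for PGI1 and 0.159 for GAPB without Col-0 replicate 1, and 0.115 for SPP2 without abci20 replicate 1.

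Flavonoids are the pigments and antioxidants that make up much of the seed coat's colour. Chalcone synthase, TT4 (AT5G13930), makes the first intermediate; F3H and TT7 add hydroxyl groups to what follows. TT4 had signals of 2.87, 2.96 and 3.43 in Col-0 and 5.41, 5.03 and 5.0 in abci20 and rose by 2.06 (SE 0.404, adjusted p 0.0327). TT7 (AT5G07990) had signals of 4.56, 4.21 and 4.44 in Col-0 and 6.65, 6.51 and 5.93 in abci20 and rose by 1.96 (SE 0.225, 3.9-fold, adjusted p 4.97e-04). Mutant replicate 3 was the lowest of its group for TT7 and still lay above every Col-0 array.

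F3H rose by 1.05 (SE 0.225, adjusted p 0.0491), from 6.39, 6.46 and 6.65 to 7.73, 7.72 and 7.2, and the long non-coding RNA AT3G51238 annotated over the same stretch rose by 1.34 (adjusted p 0.0312), so signal of the overlapping loci may not be separable. Of 19 flavonoid genes used, 3 rose and 0 fell while the list median was 0.05; PAL2, at the entry to the pathway, differed by -0.53 (adjusted p 0.581). None of 17 proanthocyanidin and seed coat genes passed, and their median was -0.1. Of their differences 11 were negative and 6 positive, where 48.7% over all probe sets were positive. The mutant arrays lay wholly below for 4, against 11% of all probe sets, and wholly above for 1, against 10.3%. Their summed linear signal was 303.1 to 359.1 in Col-0 and 224.5 to 262.8 in abci20, and its part in the results was not tested. TT4 was lost whichever array was left out, up to an adjusted p of 0.194 without Col-0 replicate 1, F3H reached 0.297 without abci20 replicate 2, and TT7 passed in every case.

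G-TMT (AT1G64970) encodes the methyltransferase that completes alpha-tocopherol, a form of vitamin E that protects membrane lipids. Its signals were 3.24, 3.24 and 3.48 in Col-0 and 5.44, 5.49 and 5.65 in abci20, and it rose by 2.21 (SE 0.303, 4.62-fold, adjusted p 0.00243). Each genotype spanned under 0.3 units. It was the 1 call among 8 tocopherol and plastoquinone genes. DWF1 (AT3G19820), which reduces sterol precursors on the route to brassinosteroids, had signals of 3.0, 3.15 and 3.14 in Col-0 and 5.15, 5.39 and 4.73 in abci20 and rose by 1.99 (SE 0.280, adjusted p 0.00278). It was the 1 call among 23 sterol and brassinosteroid genes; 17 of these had positive differences around a median of 0.36, with the receptor BRI1 at 0.99 (adjusted p 0.233) and the isomerase HYD1 at 0.82 (adjusted p 0.259). Both G-TMT and DWF1 passed whichever array was left out. KCS10, which elongates fatty acids for surface lipids, rose by 1.08 (SE 0.215, adjusted p 0.0353), a call lost without any 1 array.

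The circadian clock runs on factors that repress one another in turn through the day. PRR5 (AT5G24470), an evening repressor, had signals of 4.6, 4.38 and 4.23 in Col-0 and 6.58, 6.79 and 5.61 in abci20 and rose by 1.92 (SE 0.291, 3.79-fold, adjusted p 0.00456). Mutant replicate 3 was about 1 unit below the other 2 mutant arrays and above all of Col-0; without abci20 replicate 2 the adjusted p was 0.0529. PRR5 was the 1 call among 21 core clock genes, whose median was 0.31. RVE2, TOC1 and LCL1 differed by 0.71, 0.7 and 0.57 (adjusted p 0.243, 0.268 and 0.276).

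Of 16 clock output genes, 3 rose and 0 fell, around a median of 0.04. COL5 (AT5G57660), a CONSTANS-like B-box protein, had signals of 5.0, 5.13 and 4.62 in Col-0 and 7.09, 7.22 and 6.55 in abci20 and rose by 2.04 (SE 0.266, adjusted p 0.00178). CCL (AT3G26740), a transcript under clock control, had signals of 3.79, 4.57 and 4.48 in Col-0 and 6.35, 6.85 and 6.26 in abci20 and rose by 2.2 (SE 0.341, adjusted p 0.00585). GRP7, an RNA-binding protein under clock control, had signals of 7.25, 7.55 and 8.29 in Col-0 and 9.32, 8.89 and 9.1 in abci20 and rose by 1.41 (SE 0.266, adjusted p 0.0260). The 3 genes did not overlap between genotypes; Col-0 replicate 3 was the highest Col-0 array for GRP7 and the lowest for COL5. COL5 passed whichever array was left out, CCL reached an adjusted p of 0.0621 without abci20 replicate 2, and GRP7 one of 0.202 without Col-0 replicate 1. The hour at which seeds were harvested is not given in the labels.

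Transporters were called in both directions. MSS1 (AT5G26340), the hexose transporter also named STP13, had signals of 5.48, 5.55 and 5.97 in Col-0 and 7.4, 7.52 and 7.69 in abci20 and rose by 1.87 (SE 0.267, 3.66-fold, adjusted p 0.00291). PTR5 (AT5G01180), a transporter of small peptides, had signals of 3.74, 3.78 and 4.33 in Col-0 and 1.85, 2.35 and 2.37 in abci20 and fell by 1.76 (SE 0.264, 3.39-fold, adjusted p 0.00415). The genotypes were apart for both, and both passed whichever array was left out. These were the 2 calls among 24 peptide, sugar and amino acid transporters, whose median was 0.01. STP14, another sugar transporter, differed by 1.53 (adjusted p 0.0896).

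Further transporters were named after their values were seen. The polyol transporter PMT5 had signals of 7.16, 7.15 and 7.31 in Col-0 and 8.91, 8.51 and 8.71 in abci20 and rose by 1.5 (SE 0.210, adjusted p 0.00278), also whichever array was left out. The aquaporin PIP3 rose by 1.37 (adjusted p 0.0491) and the vacuolar ABC transporter ABCC1 by 1.1 (adjusted p 0.0473). On the lower side, AT1G68570 (NPF3.1), of the nitrate and peptide transporter family, fell by 1.15 (adjusted p 0.0123), the sugar transporter SWEET6 fell by 1.02 (adjusted p 0.0361), and the cation exchangers CAX7 and CHX26 fell by 1.65 and 1.44 (adjusted p 0.0426 and 0.0110). The antisense RNA AT1G68568 annotated over NPF3.1 fell by 1.06 (adjusted p 0.0361), and these loci cannot be told apart without the strand and position of the probes. All of these except PMT5 lost the call without at least 1 array, with highest adjusted p values from 0.107 for CHX26 without abci20 replicate 2 to 0.321 for PIP3 without Col-0 replicate 1.

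ARL (AT2G44080), which promotes cell expansion and organ size, had the largest decrease among the calls. Its signals were 6.18, 6.18 and 6.21 in Col-0 and 3.77, 3.0 and 2.88 in abci20. The Col-0 arrays agreed within 0.1 unit and every mutant array was more than 2 units lower. ARL fell by 2.97 (SE 0.320, 7.86-fold, adjusted p 2.57e-04). It was the 1 call among 21 growth and cell wall genes, with 13 positive and 8 negative differences, its own among the negative ones, and a list median of 0.31. The growth-regulating factors AT2G36400 (GRF3) and AT3G13960 (GRF5) differed by 1.25 and 1.8 (adjusted p 0.0518 and 0.0751). GA20OX3, an enzyme of gibberellin synthesis, had signals of 3.29, 3.6 and 3.08 in Col-0 and 5.19, 5.69 and 4.72 in abci20, with no overlap, and a difference of 1.87 (adjusted p 0.0538); 0 of 22 gibberellin genes passed.

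Among 22 regulators of seed maturation and dormancy 1 rose and 1 fell, and the median difference, -0.01, turned positive after quantile normalization. E12A11 (AT1G18100), known as MFT, regulates germination through abscisic acid and gibberellin. Its signals were 9.04, 9.08 and 9.11 in Col-0 and 7.84, 7.44 and 7.77 in abci20, and it fell by 1.39 (SE 0.209, 2.63-fold, adjusted p 0.00415). SPT (AT4G36930), a bHLH factor that regulates germination, had signals of 2.88, 3.74 and 3.31 in Col-0 and 4.83, 4.77 and 4.49 in abci20 and rose by 1.39 (SE 0.284, adjusted p 0.0407). Neither gene overlapped between genotypes. E12A11 passed whichever array was left out, and SPT reached 0.261 without Col-0 replicate 1. PIL5, a phytochrome-interacting factor that represses germination, differed by 1.12 (adjusted p 0.0758) and its target SOM by -0.37 (adjusted p 0.571).

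Other called genes, most of them regulators, had no place in a list and were chosen after their values were seen. MAPKKK19 had signals of 7.3, 6.94 and 7.41 in Col-0 and 4.49, 4.07 and 5.31 in abci20 and fell by 2.59 (SE 0.445, adjusted p 0.0120). AT1G80440 (KMD1), an F-box protein, had signals of 5.88, 6.47 and 6.34 in Col-0 and 8.0, 7.93 and 7.81 in abci20 and rose by 1.69 (SE 0.228, adjusted p 0.00239). Rap2.6L, a factor of the ERF family, fell by 1.39 (adjusted p 0.0407) and GATA19 fell by 1.45 (adjusted p 0.0467). BZS1, a B-box factor in brassinosteroid and light responses, rose by 1.39 (adjusted p 0.0435), and HB2, a non-symbiotic haemoglobin, rose by 1.28 (adjusted p 0.0420). AT1G54130 (RSH3), an enzyme of the plastid alarmone guanosine tetraphosphate, fell by 1.34 (adjusted p 0.0353). Of these 7 genes AT1G80440 passed whichever array was left out; MAPKKK19 reached an adjusted p of 0.116, and Rap2.6L, GATA19, BZS1, HB2 and AT1G54130 reached 0.261, 0.310, 0.218, 0.250 and 0.240, all without abci20 replicate 2.

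A part of the named genes has no symbol in the reference table and is given by locus. AT5G11420 had signals of 4.13, 4.19 and 4.11 in Col-0 and 6.6, 6.45 and 6.86 in abci20 and rose by 2.49 (SE 0.261, 5.62-fold, adjusted p 2.57e-04). AT1G71250 had signals of 5.98, 6.07 and 6.03 in Col-0 and 8.04, 8.08 and 7.98 in abci20 and rose by 2.0 (SE 0.217, adjusted p 2.57e-04). In both the replicates of a genotype were close and the genotypes far apart, and both passed whichever array was left out. AT5G42830 rose by 1.75 (adjusted p 0.0467) and lost the call without any 1 array.

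On the lower side, AT2G22880 had signals of 6.87, 7.12 and 7.42 in Col-0 and 4.92, 4.67 and 4.41 in abci20 and fell by 2.47 (SE 0.347, adjusted p 0.00278). AT5G66430 had signals of 9.32, 9.47 and 9.06 in Col-0 and 7.17, 6.93 and 7.09 in abci20 and fell by 2.22 (SE 0.303, adjusted p 0.00239). AT5G49690 and AT5G22460 fell by 1.95 and 1.73 (adjusted p 0.00412 and 0.00239). No genotype overlapped for these 4, and they passed whichever array was left out. AT2G28780 and AT4G28811 fell by 1.7 and 1.7 (adjusted p 0.0107 and 0.00749), with adjusted p values of up to 0.105 without abci20 replicate 2 and 0.0719 without Col-0 replicate 1.

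Some calls were neighbours on a chromosome. AT5G59540 had signals of 5.15, 5.1 and 4.89 in Col-0 and 3.2, 1.91 and 2.13 in abci20 and fell by 2.63 (adjusted p 0.00412); the adjoining AT5G59530, whose annotated end overlaps it, had signals of 4.89, 5.71 and 5.97 in Col-0 and 3.76, 2.68 and 3.44 in abci20 and fell by 2.23 (adjusted p 0.0136). AT1G14940 fell by 2.01 (adjusted p 0.0276), from 10.65, 10.55 and 10.44 to 8.67, 7.99 and 8.95, and the next gene AT1G14930 fell by 1.14 (adjusted p 0.00859). In each pair both genes were apart between genotypes. Without abci20 replicate 2 the adjusted p of AT5G59530 was 0.124 and that of AT1G14940 0.205, and AT1G14930 reached 0.0757 without abci20 replicate 1. Of the 123 calls, 37 overlap another annotated gene, among them ABI1, DWF1, EBF2, E12A11, G-TMT, PTR5 and TT4, and probe positions were not analysed here; 0 had values identical to another probe set.

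Messages of the seed reserves differed little between genotypes. None of 9 seed storage protein genes passed, and their differences ran from -0.227 to 0.115 around a median of -0.14. None of 7 oil body genes (median -0.2) and none of 15 late embryogenesis abundant genes (median -0.15) passed. Negative differences numbered 7, 6 and 13, and the mutant arrays lay wholly below for 1, 2 and 3 genes. Over all probe sets 48.7% of the differences were positive, and the mutant arrays lay wholly below in 11%. The Col-0 medians of these lists were 11.4, 11.3 and 11.3, where the highest polysomal signal was 12.5. Whether signals this high can show a difference in full was not tested. For storage lipid synthesis and storage lipid breakdown, 0 of 22 and 0 of 20 genes passed, with medians of 0.22 and -0.1.

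No gene in the lists of the translation machinery passed. Of 30 cytosolic ribosomal protein genes used, 29 had positive differences around a median of 0.45, and the mutant arrays lay wholly above for 20. Over all probe sets 48.7% of the differences were positive, and the mutant arrays lay wholly above in 10.3%. The summed linear signal of the 30 was 7428 to 8720 on the Col-0 arrays and 10761 to 12172 on those of abci20. STV1, BBC1, RPL18 and PGY1, the members with the smallest p, differed by 0.87, 0.77, 0.66 and 0.74 (adjusted p 0.171, 0.186, 0.211 and 0.251). With each array centred on its median the list median was 0.42 and after quantile normalization 0.53. In total and monosomal RNA the list medians were 0.42 and 0.64. Of 25 translation factors 0 passed, with a median of 0.22 and the poly(A)-binding protein PAB8 at 0.74 (adjusted p 0.122). Outside the lists, RRP4, of the RNA exosome, and the RNA-binding protein RBP47A rose by 1.18 and 1.18 (adjusted p 0.00888 and 0.0420), to adjusted p values of 0.0816 and 0.274 without abci20 replicate 2.

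**Figure D3:**
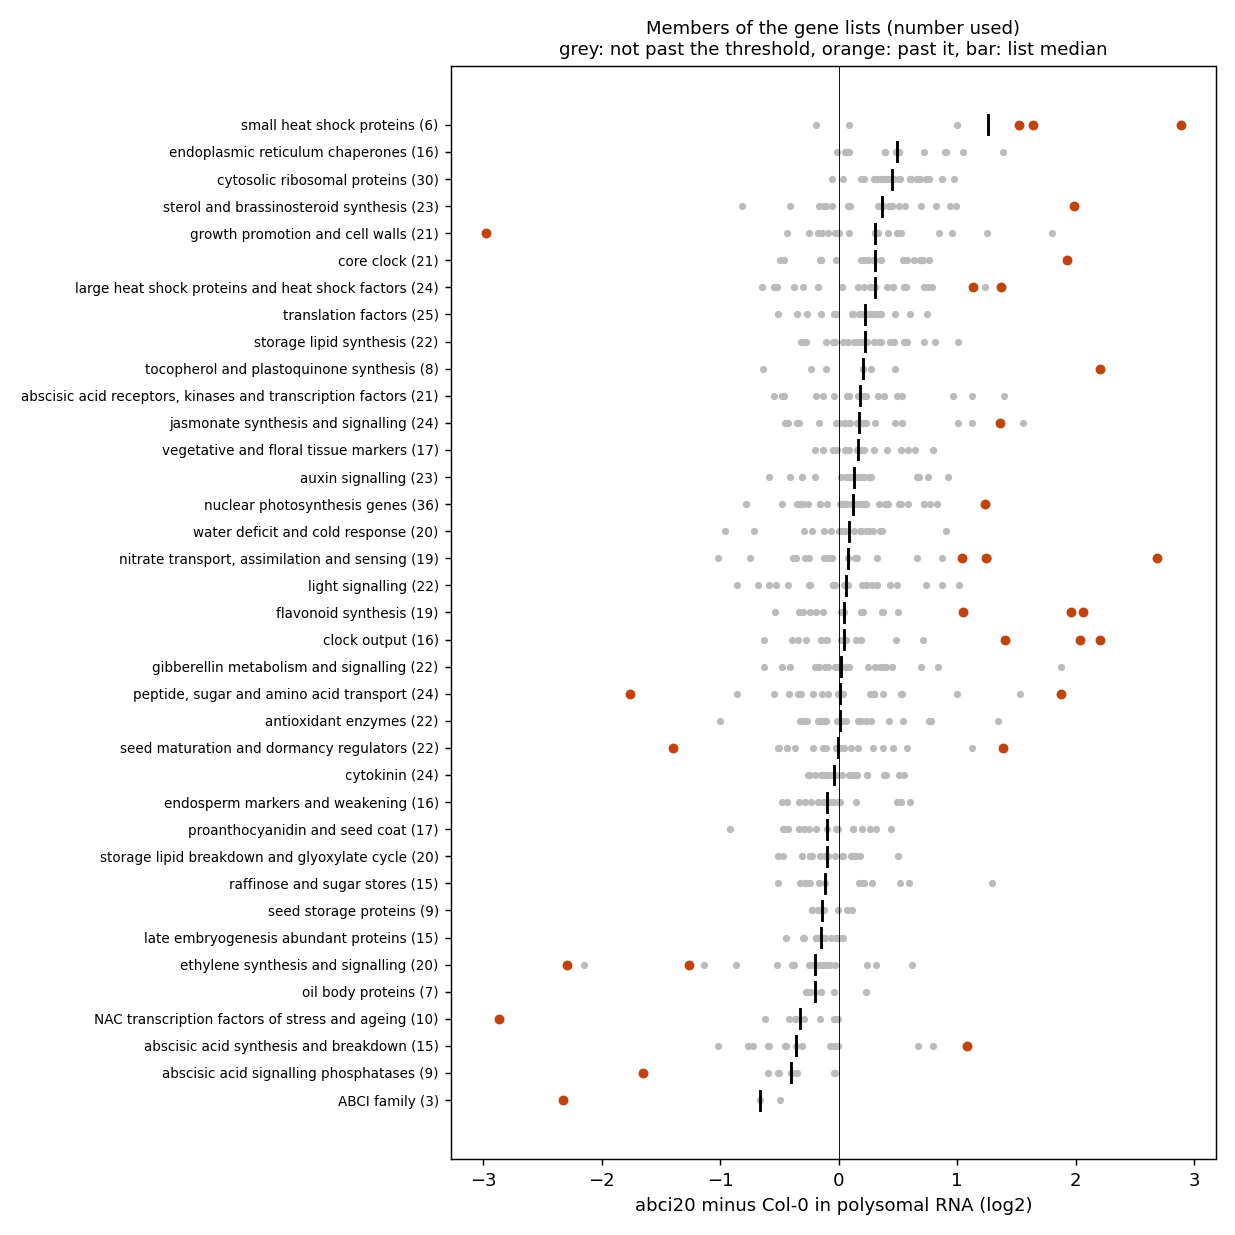
Differences between abci20 and Col-0 in polysomal RNA (log2) for the members of 37 gene lists, ordered by the list median (black bar). Orange points passed the threshold and grey points did not; small heat shock proteins, with 6 of 18 listed members used, have the highest median, 1.26, and the ribosomal proteins lie almost all to the right of 0 with none past the threshold.

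Of the 123 calls, 30 fell in a gene list and 93 in none, and 19 of the 37 lists held no call. Those with 0 calls included auxin (23 genes, median 0.13), light signalling (22, median 0.06), water deficit and cold response (20, median 0.09), endosperm (16, median -0.1), antioxidant enzymes (22, median 0.01, which turned negative with arrays centred on their medians) and raffinose and sugar stores (15, median -0.11).

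Whether the genotype difference was particular to polysomes was tested as an interaction. With polysomal minus total RNA 0 genes passed (0% of 27827, limma, Benjamini-Hochberg), against 1263 or 4.54% at an unadjusted p under 0.05. With polysomal minus monosomal RNA 0 passed as well, against 744 or 2.67%. On simulated data the polysomal minus total contrast recovered 46% of planted differences of size 2 and 3% of those of size 1. A count of 0 therefore leaves room for missed differences between fractions. In total RNA itself 932 genes were called (3.35%) and in monosomal RNA 510 (1.83%). The 65 genes higher in polysomes had median differences of 1.34 in polysomal, 1.14 in total and 1.31 in monosomal RNA, and the 58 lower genes had medians of -1.43, -1.57 and -1.29. These values share no arrays, but the fractions may come from the same seed bulks. The genes were chosen by their polysomal differences, with a spread estimated over all 18 arrays. The polysomal medians are therefore not on an equal footing with those of the other fractions.

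Among the 30 named genes, the gap between polysomal and total RNA was widest for AT5G59540 and PTR5. PTR5 differed by -1.76 in polysomal RNA, -0.4 in total RNA and -0.4 in monosomal RNA. Its polysomal minus total difference was -1.36 (SE 0.373, adjusted p 0.999) and its polysomal minus monosomal difference -1.36 (SE 0.373, adjusted p 1.0), so neither passed. AT5G59540 differed by -2.63, -0.69 and -1.98 in the 3 fractions, with a polysomal minus total difference of -1.94 (SE 0.552, adjusted p 0.999). In the opposite order, AT1G71250 differed by 2.0 in polysomal and 3.02 in total RNA (difference -1.02, adjusted p 0.999). SPT differed by 1.39, 0.24 and 0.85, with an adjusted p of 0.999 for polysomal minus total RNA.

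The 30 named genes had differences of the same sign in the 3 fractions, at sizes that varied. The fractions were farther apart for NAC019, which differed by -2.87, -1.84 and -3.16 in polysomal, total and monosomal RNA (polysomal minus total -1.03, SE 0.403, adjusted p 0.999). AT2G22880 differed by -2.47, -2.86 and -1.29 (polysomal minus monosomal -1.17, SE 0.491, adjusted p 1.0), AT2G28780 by -1.7, -1.48 and -0.77, and AT4G28811 by -1.7, -0.83 and -1.01. DWF1 differed by 1.99, 1.19 and 2.36. Among genes whose values lay closer together, ABCI20 differed by -2.32, -2.31 and -2.4 in polysomal, total and monosomal RNA, AT1G80440 by 1.69, 1.66 and 1.68, and HSP17.6II by 1.64, 1.52 and 1.71. ARL differed by -2.97, -2.81 and -2.39. Without total RNA replicate 1 of abci20, which stood apart, 28 genes passed in polysomal minus total RNA, 3 higher and 25 lower. None of the 28 was called in polysomal RNA, and 25 had a polysomal difference under 1 in size. The smallest adjusted p was that of ERS2, with a polysomal difference of -2.15 against 1.03 in total RNA without that array, a difference between fractions of -3.18 (adjusted p 0.00714).

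**Figure D4:**
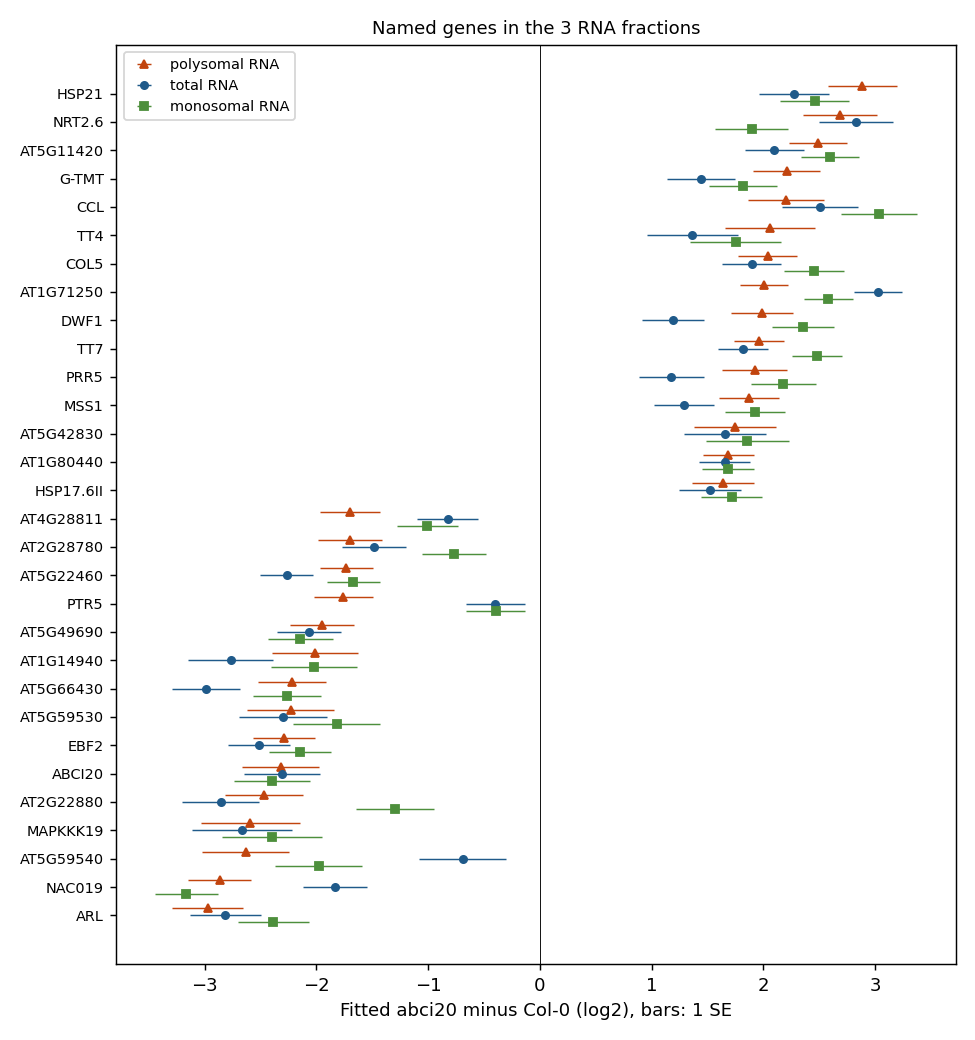
Fitted difference between abci20 and Col-0 (log2, bars of 1 SE) for the 30 named genes in polysomal (triangles), total (circles) and monosomal RNA (squares). All 30 lie on the same side of 0 in the 3 fractions; PTR5 and AT5G59540 show the widest gap between polysomal and total RNA.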

How the data were processed

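Per the labels' protocols, RNA was purified with TriPure and RNeasy columns, and a one-cycle 3-prime kit served for cRNA synthesis. The authors summarized the arrays with RMA, per the submitters' processing notes, and the deposited values are log2 signals, with the RMA version and the genome build not given in the sources used here. No detection calls or scan-level data were used, so the number of arrays limits the precision, and the signal below which a probe set is dim is unknown. Signals ran from 0.301 to 12.5 on the 6 polysomal arrays.

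All 18 arrays, in 6 groups of genotype and fraction, were fitted with limma 3.58.1 (lmFit and eBayes, R 4.3.3) with 12 residual degrees of freedom, no intensity filter, two-sided moderated tests and Benjamini-Hochberg adjustment at 0.05 over 27827 probe sets. Symbols came from a RefSeq table of TAIR10.1, which matched 27241 loci and left 586 under their locus tag; 182 probe sets with values identical to another's were neither named nor used in lists. The 37 lists held 716 loci, of which 673 were used and 41 were left out because the table does not give the locus that name. The comparison, lists and genes were chosen with earlier results of these data known, and lists are described by counts and medians with no test. Named with values were the 15 higher and 15 lower calls with the largest difference among those whose genotypes did not overlap, which held for all 123. Called list members, the list members with the smallest p, and other calls as stated were also named. The labels describe a block layout but do not tie replicate numbers to blocks, so the numbers were not taken to pair the samples. Residuals of like-numbered arrays correlated above 0.1 in 7 of 21 pairs, from -0.166 to 0.245. Arrays of unlike number were not examined in this way, so these values do not settle whether the numbers pair the samples. The fit was tested on simulated data, with 200 probe sets changed in the abci20 polysomal arrays. In the polysomal comparison it recovered 84% of the differences of size 2 and 32% of those of size 1. The planted differences were of these sizes in equal number. It also called 14 unchanged probe sets, a larger share of its calls than the 0.05 of the adjustment, in a single simulated set. Figures were drawn with matplotlib 3.10.9.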

Additional observations from a re-analysis of the deposited data

How the results depend on the processing

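The alternatives, 15 in all, were chosen with earlier results of these data known. Among 123 called genes and 41 uncalled genes printed here, 0 of the fitted differences changed direction. For the 123 calls, whose genotypes did not overlap, leaving out or weighting arrays could not reverse a difference. Other models of the same values left the difference as it was, so only quantile normalization and median centring could reverse a call. Of the gene values, 1740 kept their side of the threshold, 605 lost the call and 109 gained it. The 123 polysomal calls became 423 with only the 6 compared arrays, 222 with the 12 gradient arrays, 215 without total RNA replicate 1 of abci20, 264 with only brighter probe sets, 286 with a variance trend and robust estimation, 2657 with array weights and 67 with each array centred on its median. Leaving out 1 polysomal array gave 27 to 70. The causes of these shifts were not tested, and leaving out an array also leaves fewer samples in its group. Quantile normalization gave 123, of which 95 were calls of the deposited values. A replicate block gave 139, with 106 of the 123 kept; the labels do not tie the numbers to blocks. Polysomal minus total RNA gave 0 in every alternative run except 28 without total RNA replicate 1 of abci20, and polysomal minus monosomal RNA 0 except 2 with array weights. Of the 123 calls, 62 passed under every alternative that left all polysomal arrays in. No detection call was used, so signal over background is unknown for each probe set.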

Other observations

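Enzymes that modify small molecules were among the calls not described above, and they were chosen after their values were seen. ALPHA DOX2, an alpha-dioxygenase of fatty acids, had polysomal log2 signals of 3.66, 3.87 and 3.07 in Col-0 and 5.12, 5.21 and 4.88 in abci20 and rose by 1.53 (SE 0.324, limma adjusted p 0.0467). The glucosyltransferase UGT85A5 had signals of 6.83, 7.04 and 6.56 in Col-0 and 5.42, 5.02 and 5.53 in abci20 and fell by 1.48 (SE 0.231, adjusted p 0.00588). The malonyltransferase PMAT2 fell by 1.64 (adjusted p 0.00692), the cytochrome P450 CYP76C7 fell by 1.1 (adjusted p 0.0399) and FDH, formate dehydrogenase, fell by 0.86 (adjusted p 0.0491). No array of these 5 genes overlapped between genotypes. All 5 lost the call without at least 1 array, with adjusted p values of 0.0621 for UGT85A5, 0.252 for ALPHA DOX2, 0.254 for CYP76C7 and 0.267 for FDH without abci20 replicate 2, and 0.0719 for PMAT2 without Col-0 replicate 1.

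AT1G75960 fell by 1.34 in polysomal RNA (adjusted p 0.0491), with signals of 4.24, 3.92 and 4.63 in Col-0 and 2.8, 2.82 and 3.15 in abci20, and differed by 0.14 in total RNA and -0.1 in monosomal RNA. Its polysomal minus total difference was -1.48 (SE 0.404, adjusted p 0.999), and the polysomal call was lost whichever array was left out, up to an adjusted p of 0.258 without Col-0 replicate 3. AT5G10120, which rose by 1.24 in polysomal RNA (adjusted p 0.00412) and passed whichever array was left out, differed by 0.31 in total and 0.67 in monosomal RNA, with a polysomal minus total difference of 0.93 (SE 0.260, adjusted p 0.999).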
